A study of Mus musculus with 11 samples.

Results

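The replication-dependent histone genes were taken as every protein-coding gene of the table whose mouse symbol, in the GENCODE M21 naming, starts with Hist1h, Hist2h, Hist3h or Hist4. The rule found 65 genes among 48795 rows, of which 21695 were protein-coding. They comprised 6 genes of H1, 18 of H2A, 16 of H2B, 12 of H3 and 13 of H4. Hist1h2bm and Hist1h2bh, which the rule also names, were not analysed here because no row carried their identifiers.

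All mice were females of 8 to 12 weeks that had received sheep red blood cells (SRBC) intravenously, and spleens were taken on day 10. Light zone (LZ) germinal center B cells (B220+, CD138neg, IgDneg, CD38neg, Fas+, CD86high, CXCR4low) were sorted from 4 Myc_WT mice, numbered 1 to 4, and from 4 Myc_VD mice, numbered 5 to 8. Memory B cells (MBCs; B220+, CD138neg, IgDneg, CD38+, CD273+) came from Myc_WT mice 1, 3 and 4, so each MBC library has an LZ library of the same animal. Myc_VD mice carry MYC V394D, a mutant that does not bind MIZ1, encoded at the endogenous Myc locus. Each library was 1 mouse. In the mouse codes of the sample titles, Myc_WT mice 1 to 3 share a prefix, Myc_WT mouse 4 has a different one and the Myc_VD mice have one of their own. What the prefixes stand for is not given, and in the second comparison they cannot be told apart from genotype.

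Replication-dependent histone genes supply the bulk of the histones that package newly made DNA. They are transcribed mainly in S phase with the help of NPAT, which gathers at the histone gene clusters. Their mRNAs usually have no introns and no poly(A) tail and end in a stem-loop bound by SLBP, which ties their stability to DNA replication. Germinal center B cells divide fast, whereas MBCs rest.

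The stem-loop is the feature that the naming rule did not use, and its letters differed between classes. A stem of 6 bases starting with GG, a loop of 4 bases starting with TTT and the matching strand of the stem were searched in the annotated transcripts. The element was found in 42 of 65 members (64.6%), which is 42 of the 54 members (77.8%) whose longest model runs past the coding sequence. It was found in 26 of the 21801 other protein-coding genes (0.12%), counted over the GENCODE M21 annotation and not over the table. The 31 elements of H1, H2A, H2B and H3 all had the stem GGCTCT, while H4 genes had GGCCCT in 9 and GGTCCT in 2. Shown are the elements of the most abundant member with a match in each class, followed by the rarer GGTCCT stem and TTTT loop (GENCODE M21 transcripts on GRCm38, transcript strand, written as DNA), with the stem-loop in capitals.
Hist1h1e: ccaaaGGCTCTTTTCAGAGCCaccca
Hist1h2ap: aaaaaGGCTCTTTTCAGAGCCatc
Hist1h2bk: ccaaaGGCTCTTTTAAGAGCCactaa
Hist1h3b: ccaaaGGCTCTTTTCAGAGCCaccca
Hist1h4d: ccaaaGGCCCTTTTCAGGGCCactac
Hist1h4j: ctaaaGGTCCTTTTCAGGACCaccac
Hist2h2ac: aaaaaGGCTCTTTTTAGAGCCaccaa
In the same order these lie at chr13:23621777-23621802 (minus strand), chr13:21833026-21833049 (minus strand), chr13:22036295-22036320 (plus strand), chr13:23752815-23752840 (plus strand), chr13:23581945-23581970 (plus strand), chr13:21735432-21735457 (plus strand) and chr3:96220413-96220438 (minus strand). The loop was TTTC in all but Hist1h2bk, with TTTA, and Hist2h2ac, with TTTT.

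Promoters were searched in the RefSeq windows from 250 bases before to 50 after the start, which were found for 59 members. CCAAT, on either strand, was in every window of H1, H2A, H2B and H3, in 3 of 12 windows of H4, and in 38.19% of the windows of all protein-coding genes. The octamer ATTTGCAT, on either strand, was in 7 of 17 H2A windows (41.2%), 5 of 14 H2B windows (35.7%) and none of the other classes, against 1.66% of all. TATAAA on the gene's strand was in 30 of 59 windows (50.8%) against 8.26% of all. Each motif was counted on its own, whether or not it overlapped another. Windows of neighbouring H2A and H2B genes that face away from each other can overlap. A CCAAT or octamer there can count for both genes, so these windows are not all separate promoters. The 250 bases before the RefSeq start are shown for Hist1h2bk and Hist1h4d, an H2B gene with the octamer and the main H4 gene, with the motifs in capitals (GRCm38.p6, chr13:22035571-22035820 and chr13:23581318-23581567, both plus strand).
Hist1h2bk: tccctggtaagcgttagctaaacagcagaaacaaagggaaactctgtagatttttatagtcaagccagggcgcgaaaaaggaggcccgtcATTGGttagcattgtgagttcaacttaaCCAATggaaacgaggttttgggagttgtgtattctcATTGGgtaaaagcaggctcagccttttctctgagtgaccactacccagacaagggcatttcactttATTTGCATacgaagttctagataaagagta
Hist1h4d: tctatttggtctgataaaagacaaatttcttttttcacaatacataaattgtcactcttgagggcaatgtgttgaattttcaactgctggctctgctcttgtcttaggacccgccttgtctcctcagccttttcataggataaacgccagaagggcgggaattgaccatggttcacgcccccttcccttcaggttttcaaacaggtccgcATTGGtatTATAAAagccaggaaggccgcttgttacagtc
The stretch of Hist1h2bk holds 3 CCAAT boxes and 1 octamer, and that of Hist1h4d holds 1 CCAAT box and 1 TATAAA. A match describes letters and not a bound factor.

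The genes lie in clusters, 52 on chromosome 13 (Hist1), 10 on chromosome 3 (Hist2), 2 on chromosome 11 (Hist3) and 1 on chromosome 6 (Hist4). Many copies are nearly identical. The 13 H4 genes encode 1 protein and the 12 H3 genes 2 proteins, while the 6 H1 genes each encode their own. The median share of a gene's 50-base words that also occur in another gene was 73.0% for H2A, 62.0% for H3, 51.7% for H2B, 39.5% for H4 and 1.15% for H1. Reads from shared words can be divided between copies in many ways, so each class is also given as the sum of its members.

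Values are TPM, the usual unit of transcript abundance, that is, reads divided by model length and scaled to a fixed total in each library. TPM keep no depth, so how many reads stand behind a value is unknown, and a value of 0 may be an estimate that failed. Ribosomal RNA took 35.7 to 44.5% of TPM in Myc_WT LZ, 44.1 to 61.3% in Myc_VD LZ and 36.1 to 37.5% in MBC libraries. The 4 germinal center markers (Bcl6, Fas, S1pr2, Mef2b) summed to 345 to 480.4 TPM in Myc_WT LZ, 291 to 455 in Myc_VD LZ and 30.3 to 112 in MBC libraries. The 5 memory markers (Cd38, Pdcd1lg2, Ccr6, Cd80, Nt5e) summed to 31.4 to 35.2, 15.9 to 32.9 and 380.2 to 547 TPM in the same order. The 3 B cell markers (Cd79a, Cd79b, Ms4a1) summed to at least 1115 TPM in every library. Transcripts of other cells were present too. The 7 erythroid markers summed to 6713 TPM in MBC mouse 3, against 7.6 and 53.4 in MBC mice 1 and 4 and 116 to 226 in Myc_WT LZ. The 6 myeloid markers summed to 16.1, 42.2 and 163 TPM in MBC mice 1, 3 and 4, above the 0.82 to 9.15 of Myc_WT LZ and the 0 to 12.4 of Myc_VD LZ. Of the 3 tested in MBC against LZ, 2 rose, Csf1r by 3.39 ± 0.51 (SE) and Itgam by 2.66 ± 0.48 on the log2 scale (limma, adjusted p = 0.00652 and 0.0137). Lyz2, also tested, was not called (limma, adjusted p = 0.381). It was at 0.15, 31.2 and 136 TPM in MBC mice 1, 3 and 4, against 0.7 to 5.71 in Myc_WT LZ. Cd14 was at 2.11, 0 and 1.9 TPM in MBC mice 1, 3 and 4. S100a8 and S100a9 were listed at 0 in all 3, against up to 0.99 and 3.04 TPM in Myc_WT LZ. The 5 T cell markers summed to at most 12.5 TPM in any library.

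LZ B cells carried mRNA from nearly the whole histone family. Of 65 members, 59 were above 0 in all 8 LZ libraries, 49 had a mean over 10 TPM in Myc_WT LZ and 21 a mean over 100 TPM. Their sum was 11315, 6063, 10978 and 7085 TPM in Myc_WT mice 1 to 4, which is 0.606 to 1.13% of all TPM. Mice 1 and 3 were high and mice 2 and 4 low, in the sum and in each of the 5 class sums. In Myc_VD mice 5 to 8 the sum was 11251, 12835, 10764 and 7082 TPM, and mouse 8 was the lowest in each class. In MBC libraries of mice 1, 3 and 4 it was 768, 1196 and 1286 TPM, or 0.0768 to 0.129% of TPM. Below, values are listed in this order of mice.

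**Figure D1:**
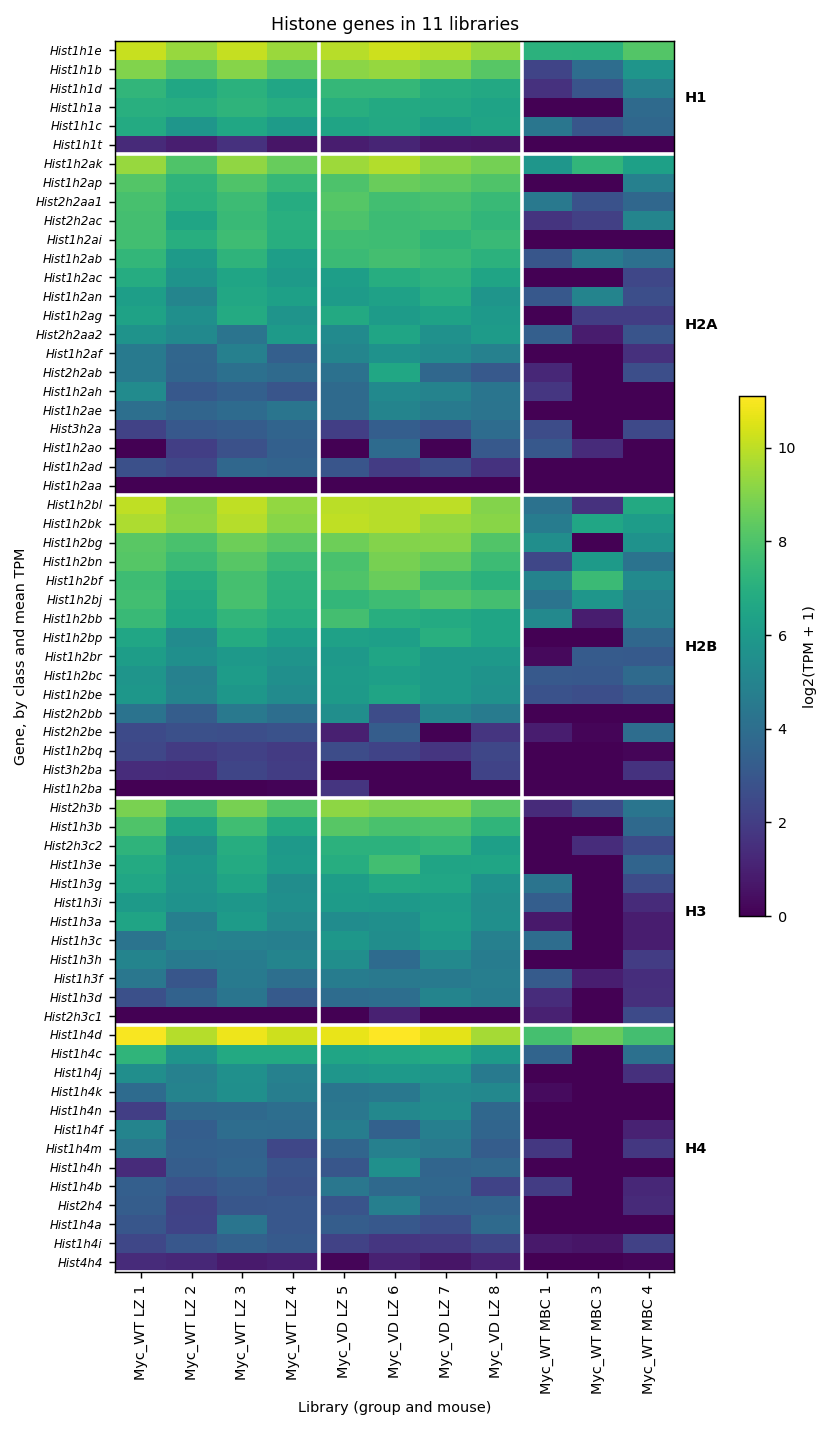
Each row is 1 of the 65 histone genes, each column 1 of the 11 libraries, and the colour is log2(TPM + 1). Most genes are high in the 8 LZ columns and near 0 in the 3 MBC columns, with exceptions such as Hist1h4d and Hist1h1e.

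H2B had the highest summed TPM in LZ and H3 the lowest. In Myc_WT LZ the sums were 2854 ± 795 TPM for H2B, 1746 ± 558 for H4, 1658 ± 454 for H1, 1645 ± 549 for H2A and 957 ± 349.6 for H3 (mean ± SD, n = 4). H4, H1 and H2A lay within each other's spread. Of all histone TPM in Myc_WT LZ, H2B took 30.1 to 33.7%, H4 18.4 to 20.6%, H1 18.1 to 20.5%, H2A 17.3 to 19.5% and H3 10.00 to 11.6%. These levels depend on the annotated lengths, since 11 members are annotated with the coding sequence only and the longest H1 model has 7425 bases.

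**Figure D2:**
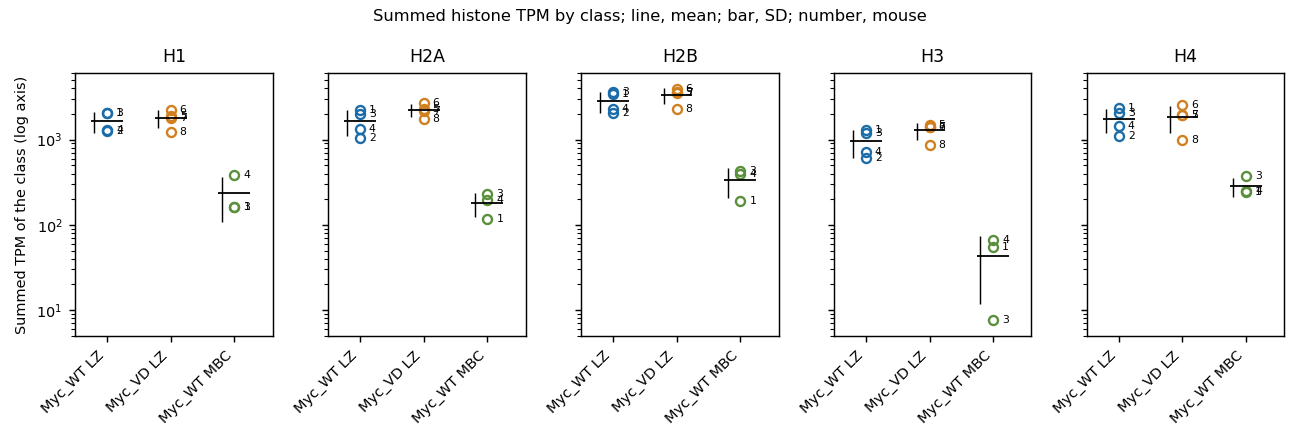
Points are libraries, numbered by mouse, and the y axis is the summed TPM of each class on a log scale, with the group mean as a line and the SD as a bar. Every MBC point lies below every LZ point, and MBC mouse 3 is the lowest for H3, at 7.60 TPM.

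Among linker histones (H1), which bind DNA between nucleosomes, Hist1h1e led (ENSMUSG00000051627, chr13:23620629-23622558, minus strand). It was at 1159.7, 669, 1127 and 679.6 TPM in Myc_WT LZ, at 963, 1217, 1006 and 659 in Myc_VD LZ and at 138, 133 and 275 in MBC libraries. It made up 50.3 to 56.3% of H1 TPM in LZ and 72.0 to 84.3% in MBC libraries. In Myc_WT LZ Hist1h1b followed with 417 ± 119.7 TPM, ahead of Hist1h1a at 128 ± 12.3, Hist1h1d at 121 ± 31.6 and Hist1h1c at 82.4 ± 25.2 (mean ± SD, n = 4). Hist1h1d overlapped both Hist1h1a and Hist1h1c, while every value of Hist1h1a was above every value of Hist1h1c. This order depends on the annotated lengths. The model of Hist1h1d has 7425 bases, against 743 for Hist1h1b, 741 for Hist1h1a and 1560 for Hist1h1c. Hist1h1t, the testis form of H1, was at 0.53 to 2.03 TPM in Myc_WT LZ. The annotated span of Hist1h2be overlaps Hist1h1e on the same strand, so reads could be divided between them.

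In H2A, which pairs with H2B in the nucleosome, the leading gene was Hist1h2ak (ENSMUSG00000063021, chr13:21753435-21753827, minus strand). It was at 674, 266, 601 and 371 TPM in Myc_WT LZ, at 718, 899, 551 and 440.0 in Myc_VD LZ and at 55.9, 158 and 77.7 in MBC libraries. Mouse 3 was the highest of the MBC libraries and still below every LZ library. Hist1h2ak is annotated with the coding sequence only, 393 bases, and its rank depends on that length. In Myc_WT LZ Hist1h2ap had 214 ± 66.5 TPM, Hist2h2aa1 169 ± 51.7 and Hist2h2ac 155 ± 55.6 (mean ± SD, n = 4), which overlap. Hist1h2aa, a testis gene, was listed at 0 in all 11 libraries.

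In H2B, Hist1h2bl and Hist1h2bk were close to each other. Hist1h2bl (ENSMUSG00000094338, chr13:21715763-21716143, minus strand) was at 1052, 557, 1061 and 634 TPM in Myc_WT LZ, at 989, 958, 1009.9 and 533 in Myc_VD LZ and at 17.0, 1.99 and 108 in MBC libraries. Hist1h2bk (ENSMUSG00000062727, chr13:22035870-22036345, plus strand), whose promoter and stem-loop are shown above, was at 858, 585, 944 and 551 TPM in Myc_WT LZ, at 1034, 973, 662 and 564 in Myc_VD LZ and at 24.4, 94.4 and 69.8 in MBC libraries. They share 82.8% and 74.2% of their words with other genes, and their ranges overlap, so their order is not firm. Their rank also depends on annotated length, with 381 bases, the coding sequence only, for Hist1h2bl and 476 for Hist1h2bk. In Myc_WT LZ Hist1h2bg had 312 ± 67.2 and Hist1h2bn 238 ± 60.3 TPM (mean ± SD, n = 4).

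In H3 the leading gene was Hist2h3b of the chromosome 3 cluster (ENSMUSG00000074403, chr3:96268654-96269141, plus strand). It was at 466, 219.9, 453 and 270.0 TPM in Myc_WT LZ, at 593, 498, 511 and 292 in Myc_VD LZ and at 1.54, 5.01 and 18.6 in MBC libraries. In Myc_WT LZ Hist1h3b had 165 ± 85.6, Hist2h3c2 93.9 ± 47.3 and Hist1h3e 86.5 ± 27.8 TPM (mean ± SD, n = 4), which overlap. Hist2h3c1, chosen after its values were seen, was the only member with a higher mean in MBCs than in Myc_WT LZ. It was listed at 0 in all 4 Myc_WT LZ libraries and at 1.03, 0 and 4.66 TPM in MBC libraries, and all of its words occur in another gene.

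H4 rested on 1 gene, Hist1h4d (ENSMUSG00000061482, chr13:23581598-23582735, plus strand). It was at 2041, 943, 1784 and 1232 TPM in Myc_WT LZ, at 1675, 2191, 1586 and 777 in Myc_VD LZ and at 223, 369.9 and 219 in MBC libraries. It was the highest member in 10 of 11 libraries, the exception being MBC mouse 4, and took 79.5 to 87.4% of H4 TPM in LZ and 88.7 to 99.8% in MBC libraries. Of its words, 10.2% occur in another gene. In Myc_WT LZ Hist1h4c had 104 ± 40.0, Hist1h4j 36.6 ± 9.59 and Hist1h4k 28.7 ± 13.0 TPM (mean ± SD, n = 4).

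H2A and H2B genes often face away from each other over a short shared promoter, and 12 such pairs had starts within 500 bases. Levels within a pair could differ widely in Myc_WT LZ. Hist1h2bk averaged 735 TPM while its partner Hist1h2ah, 302 bases away, averaged 16.0. Hist1h2bg averaged 312 TPM and Hist1h2ae 14.8, with 176 bases between their starts. Hist2h2ac averaged 155 TPM and Hist2h2be 5.31, whereas Hist1h2bp and Hist1h2an were near each other at 79.5 and 70.7 TPM. These levels depend on annotated length, with a model of 520 bases for Hist2h2ac and 2620 for Hist2h2be. Of the words of Hist1h2ah, 90.7% occur in another gene, so its reads could have been given to other copies. How much of the gaps such limits make was not tested. Hist1h2ah and Hist1h2an were chosen as partners, after values were seen.

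The first comparison set MBCs against LZ B cells of Myc_WT mice, and MBCs held far less histone mRNA. Summed over all members, the mean was 8860.3 ± 2676 TPM in LZ (SD, n = 4) and 1083 ± 277 in MBCs (SD, n = 3), which is 8.18-fold lower. H3 was 22.3-fold lower, H2A 9.08-fold, H2B 8.45-fold, H1 7.04-fold and H4 6.11-fold, and in each class all 3 MBC libraries lay below all 4 LZ libraries. These are ratios of group means. Within mice 1, 3 and 4 the H3 sum was 23.7-fold, 158-fold and 10.8-fold higher in LZ, and without MBC mouse 3 the ratio for H3 was 15.8-fold. The H1 sum was 12.6-fold, 12.7-fold and 3.36-fold higher within the same mice. H3 had the largest ratio with any 1 library left out, but the order of the other classes rested on single libraries, since H1 was at 10.2-fold without MBC mouse 4, above H2A at 9.48-fold, and at 6.08-fold without MBC mouse 3, below H4 at 7.17-fold. Within a mouse, the sum of all members was 14.7-fold, 9.18-fold and 5.51-fold higher in LZ than in MBC for mice 1, 3 and 4. In RNA of a sorted population, fewer cells with an mRNA and less of it per cell cannot be told apart.

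Single members were tested with limma on log2(TPM + 1), on which changes of low genes look smaller than they are. The test was two-sided, took genes whose mean reached 1 TPM and used Benjamini-Hochberg adjustment over all of them. Of 65 members, 60 were tested, and 49 fell in MBCs (adjusted p below 0.05) while 0 rose, also at an unadjusted p below 0.05. Of all 13245 genes tested, 5.04% were called lower and 4.17% higher. The median log2 difference of the 60 members was -3.52, against -0.14 for all genes tested. It was -3.60 without the 7 tested members listed at 0 in all MBC libraries, for which the fitted value is no bound. These 7 passed the filter through their LZ values alone and could not rise, and all of them are among the 49. In 54 of the 60 members, these 7 included, all MBC libraries lay below all LZ libraries, as did 14.4% of all genes tested. The number that fell was 27 without LZ mouse 3, 30 without LZ mouse 1 and 37 with the mouse as a block, a fit that leaves out LZ mouse 2, for which no MBC library was analysed here. Without MBC mouse 3, with its erythroid transcripts, it was 50, and without MBC mouse 4, the highest in myeloid transcripts, 51. The sum of the 6 myeloid markers, though not each marker, was higher in each MBC library than in each LZ library. Leaving out 1 library therefore does not remove myeloid transcripts, and their part in the differences was not tested.

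By class, 5 of 5 tested H1, 15 of 17 H2A, 11 of 15 H2B, 9 of 11 H3 and 9 of 12 H4 genes fell, with median log2 differences of -3.80, -3.11, -3.43, -4.23 and -2.95. The most abundant H1, H2A and H4 genes were among those with the smaller changes. On the log2 scale Hist1h1e fell by 2.35 ± 0.33 (adjusted p = 0.00526), where ± is the SE here and below. Hist1h2ak fell by 2.33 ± 0.43 (adjusted p = 0.0139), and Hist1h4d fell by 2.45 ± 0.31 (adjusted p = 0.00363). The most abundant H2B and H3 genes changed more. Hist1h2bl fell by 5.46 ± 0.98 (adjusted p = 0.0130), Hist1h2bk fell by 3.69 ± 0.44 (adjusted p = 0.00284) and Hist2h3b fell by 5.65 ± 0.63 (adjusted p = 0.00232). Hist1h1b and Hist1h1a also changed more than Hist1h1e, where Hist1h1b fell by 4.65 ± 0.69 (adjusted p = 0.00645) and Hist1h1a fell by 5.72 ± 0.86 (adjusted p = 0.00669). Hist1h3b fell by 5.96 ± 0.91 (adjusted p = 0.00689) and Hist1h2ap fell by 6.08 ± 1.06 (adjusted p = 0.0119), and both were listed at 0 in MBC mice 1 and 3. Hist1h2bg fell by 4.55 ± 1.20 (adjusted p = 0.0484), the largest adjusted p among the named members called. It was at 44.4, 0 and 49.5 TPM in MBC libraries, and with single libraries left out the log2 difference ranged from -5.51 to -2.685, the latter without MBC mouse 3, where it was listed at 0. Single MBC libraries also set the range for Hist1h2bl (-6.76 to -4.17), Hist1h2ap (-7.69 to -5.28), Hist1h3b (-7.22 to -5.335) and Hist1h1a (-7.01 to -5.08). The call of Hist1h2bg was lost under 5 alternatives with all libraries kept (adjusted p 0.0552 to 0.119) and without any 1 of the 4 LZ mice (adjusted p 0.107 to 0.130). Without LZ mouse 1 or without LZ mouse 3, Hist1h2ak was not called either (adjusted p = 0.0515 and 0.0527), nor was Hist1h2bl without LZ mouse 1 (adjusted p = 0.0508).

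**Figure D3:**
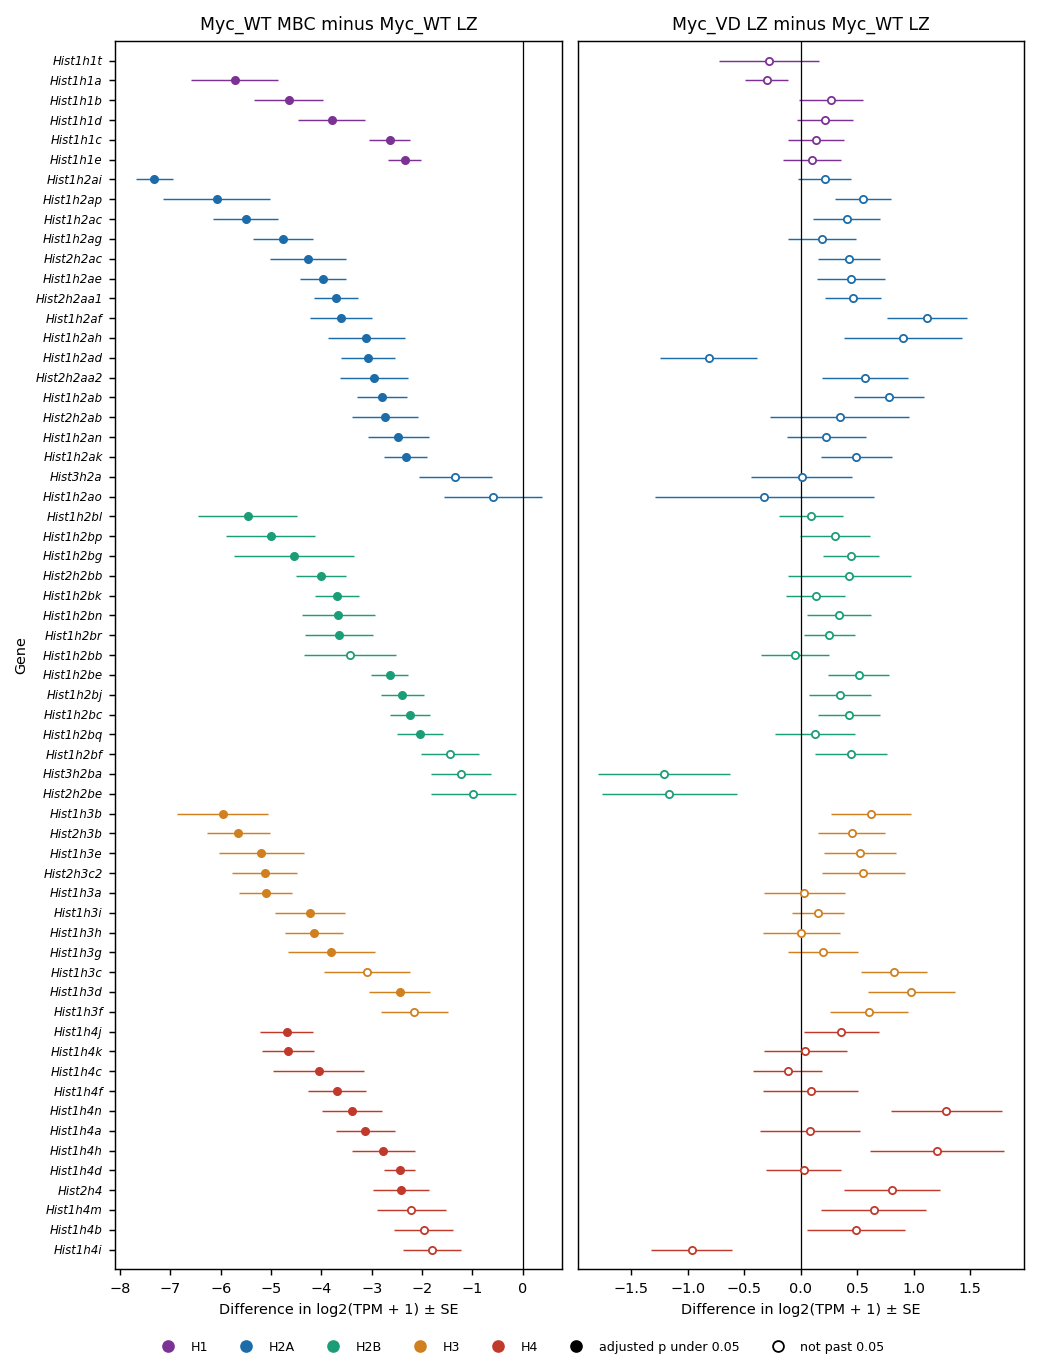
Points are differences in log2(TPM + 1) with their SE for each tested member, in one panel for MBC minus LZ of Myc_WT mice and in the other for Myc_VD minus Myc_WT LZ, with filled points at an adjusted p below 0.05. In the MBC panel all 60 points lie below 0 and 49 are filled, and in the Myc_VD panel 52 of 61 lie above 0 and 0 are filled. Both panels use the Myc_WT LZ libraries.

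In all, 10 genes were listed at 0 in all 3 MBC libraries. Among them Hist1h1t, Hist1h2ba and Hist1h2aa were also low in Myc_WT LZ, with means of 1.23, 0.02 and 0 TPM. The most abundant of the 10 in LZ was Hist1h2ai, at 211, 122, 203 and 122 TPM in Myc_WT LZ, whose divergent partner Hist1h2bl was above 0 in each MBC library. Of the words of Hist1h2ai, 90.1% occur in another gene, so its reads could have been given to other copies. Hist1h2ae was at 15.6, 11.3, 13.7 and 18.9 TPM in Myc_WT LZ. MBC libraries differed in how many members they listed at 0, with 26, 38 and 13 in mice 1, 3 and 4, against 2 to 4 in Myc_WT LZ. The number of all genes above 0 moved with it, at 12983, 11527 and 16040, and its part in the zeros was not tested.

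Few genes held the histone TPM that remained in MBCs. The 3 highest members took 54.3, 60.1 and 46.8% of it in MBC mice 1, 3 and 4, against 35.9 to 37.6% in Myc_WT LZ. Hist1h4d was among these 3 in each mouse, Hist1h1e and Hist1h2ak in a pair of mice each. H3 took 7.20, 0.636 and 5.14% of histone TPM in MBC libraries, below every LZ library. H4 took 31.3, 31.0 and 19.2%, with mouse 4 inside the LZ range. Shares were described and not tested.

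**Figure D4:**
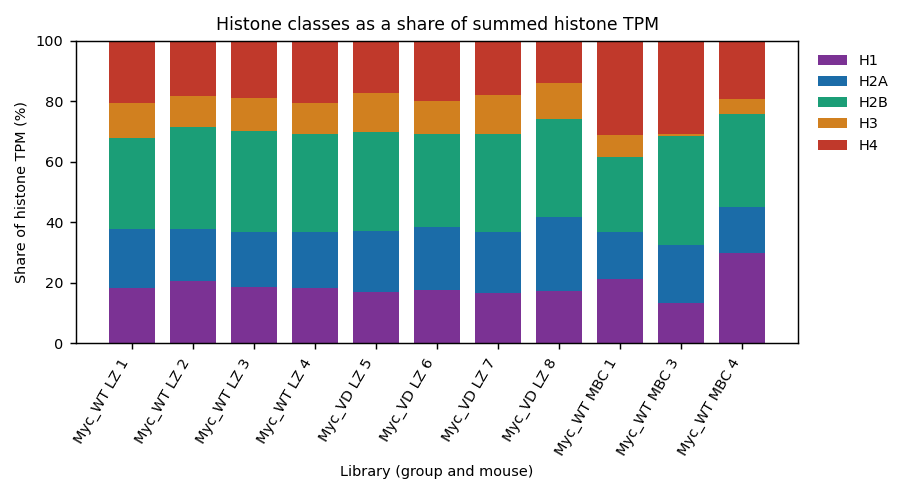
Stacked bars give the share of each class in the summed histone TPM of every library, in percent. The H3 band is smaller in the 3 MBC bars than in the 8 LZ bars and is 0.636% in MBC mouse 3.

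Of the 11 tested members that did not pass, 9 averaged 2.55 to 25.8 TPM in Myc_WT LZ. Hist1h2bf and Hist1h2bb, chosen after their values were seen, averaged 173 and 137 TPM. Hist1h2bf was at 203, 120.1, 226 and 141 TPM in Myc_WT LZ and at 29.9, 190.2 and 38.6 in MBC libraries, so the groups overlapped through mouse 3 (log2 difference -1.45 ± 0.58, adjusted p = 0.151). Hist1h2bb was at 183, 90.2, 159 and 117 TPM in LZ and at 36.9, 0.87 and 25.9 in MBC libraries, without overlap (adjusted p = 0.0506 with limma, and 0.0443 with the mouse as a block). Of the 5 members under the filter, Hist4h4 had the smallest p in an exact permutation test, 0.0286, the smallest that 35 groupings allow, or 0.143 after Benjamini-Hochberg adjustment over these 5 tests.

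Some histone genes also make polyadenylated mRNA outside S phase, and 6 genes were listed here as such. The list need not be complete. Their values varied. Hist1h2ac was at 117, 50.6, 92.1 and 64.4 TPM in LZ and at 0, 0 and 4.07 in MBC libraries, and it fell by 5.51 ± 0.64 (adjusted p = 0.00253). Hist1h1c was at 109, 55.1, 97.7 and 67.8 TPM in LZ and at 19.8, 6.90 and 12.0 TPM in MBC libraries, and it fell by 2.65 ± 0.41 (adjusted p = 0.00770). Hist1h2bc fell by 2.24 ± 0.40 (adjusted p = 0.0128), which was not called with the mouse as a block (adjusted p = 0.0617). Hist2h2be was at 4.59, 5.46, 5.31 and 5.88 TPM in LZ and at 0.86, 0.12 and 14.6 in MBC libraries, where mouse 4 was above every Myc_WT LZ library (adjusted p = 0.499 with limma, and 0.0180 without MBC mouse 4). Hist3h2a had 7.61 ± 3.07 TPM in LZ (SD, n = 4) and was at 4.96, 0 and 4.54 in MBC libraries (limma, adjusted p = 0.276). Hist3h2ba was at 1.63, 1.58, 3.93 and 3.05 TPM in LZ and at 0, 0 and 2.10 in MBC libraries (adjusted p = 0.222 with limma, and 0.0446 without MBC mouse 4).

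Of all members, 5 are annotated with more than 1 exon, Hist1h2bc among them. Hist1h2be fell by 2.65 ± 0.37 (adjusted p = 0.00512), Hist1h2bp fell by 5.00 ± 0.88 (adjusted p = 0.0123) and Hist1h2br fell by 3.65 ± 0.68 (adjusted p = 0.0152). Hist1h2bq was at 2.83 to 4.13 TPM in LZ, and it fell by 2.04 ± 0.45 (adjusted p = 0.0270), which was not called with the mouse as a block (adjusted p = 0.224). Hist1h2bc, Hist1h2bp, Hist1h2bq and Hist1h2br were not called without LZ mouse 1 (adjusted p 0.0508 to 0.0788) or without LZ mouse 3 (adjusted p 0.0509 to 0.1002), and Hist1h2bq also not without LZ mouse 2 or LZ mouse 4 (adjusted p = 0.0969 and 0.0747).

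Of 16 genes for histone gene transcription and mRNA 3' processing, 1 fell and 0 rose in MBCs, and the median log2 difference was -0.71. Of all genes tested 5.04% fell and 4.17% rose, with a median of -0.14, the background for this and the next lists, and 1 of 16 is near it. The 1 was Slbp, which binds the stem-loop, at 143, 173, 186 and 130.3 TPM in LZ and at 65.3, 24.2 and 52.6 in MBC libraries (log2 difference -1.82 ± 0.35, adjusted p = 0.0172). Casp8ap2 (FLASH), which acts with NPAT, was at 42.5 to 58.7 TPM in LZ and at 28.2, 17.9 and 46.6 in MBC libraries (adjusted p = 0.203). Npat itself, chosen for its role after values were seen, was at 14.2 to 21.6 TPM in LZ and at 5.19, 14.6 and 13.5 in MBC libraries (adjusted p = 0.323).

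Of 13 genes listed under replication-coupled histone chaperones, not all of them chaperones, 3 fell and 0 rose, with a median of -1.26. The log2 difference was negative in 10 of the 13. Asf1b, a chaperone of H3 and H4, fell by 4.36 ± 0.54 (adjusted p = 0.00325). Hat1, the acetyltransferase of new H4, fell by 3.41 ± 0.73 (adjusted p = 0.0244). Chaf1b, a subunit of CAF-1, fell by 3.07 ± 0.72 (adjusted p = 0.0325). Nap1l1, the most abundant, had a log2 difference of -0.68 (adjusted p = 0.0741). Of 6 chaperones that act outside replication, 0 fell and 1 rose. This was Atrx, at 155 to 216 TPM in LZ and 352 to 529 in MBC libraries (log2 difference 1.23 ± 0.22, adjusted p = 0.0123).

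Most replication-independent histone variants are made from polyadenylated mRNAs and not only in S phase. H2afx also makes a stem-loop mRNA in S phase, and Cenpa is made mainly in G2. Of 11 genes, 10 were tested, 6 fell and 0 rose, with a median of -1.15. H2afz fell by 2.99 ± 0.26 (adjusted p = 9.69e-04), H2afx fell by 3.88 ± 0.45 (adjusted p = 0.00251) and H2afv fell by 2.98 ± 0.59 (adjusted p = 0.0190). Of the genes of H3.3, H3f3a fell by 1.10 ± 0.25 (adjusted p = 0.0294) and H3f3b fell by 1.12 ± 0.24 (adjusted p = 0.0231). Cenpa, the centromeric H3, fell by 1.38 ± 0.28 (adjusted p = 0.0208). H3f3a was at 1200.0 to 1884 TPM in LZ and at 588 to 959 in MBC libraries. The 12 replication-dependent H3 genes summed to 1310.2, 606, 1199 and 712 TPM in LZ and to 55.3, 7.60 and 66.1 in MBC libraries. H2afx was at 708, 342, 597 and 344 TPM in Myc_WT LZ, with mice 1 and 3 high like the histone sums, while H2afz was at 1889, 2346, 2252 and 1461.

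Of 24 DNA synthesis genes, 14 fell and 0 rose in MBCs, with a median of -1.92. Pcna, the sliding clamp, fell by 1.73 ± 0.21 (adjusted p = 0.00285). Tyms, thymidylate synthase, fell by 5.26 ± 0.90 (adjusted p = 0.0110), and Gins1, a part of the replicative helicase, fell by 4.52 ± 0.45 (adjusted p = 0.00159). The list summed to 1570 to 2314 TPM in Myc_WT LZ and 548 to 706 in MBC libraries.

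**Figure D5:**
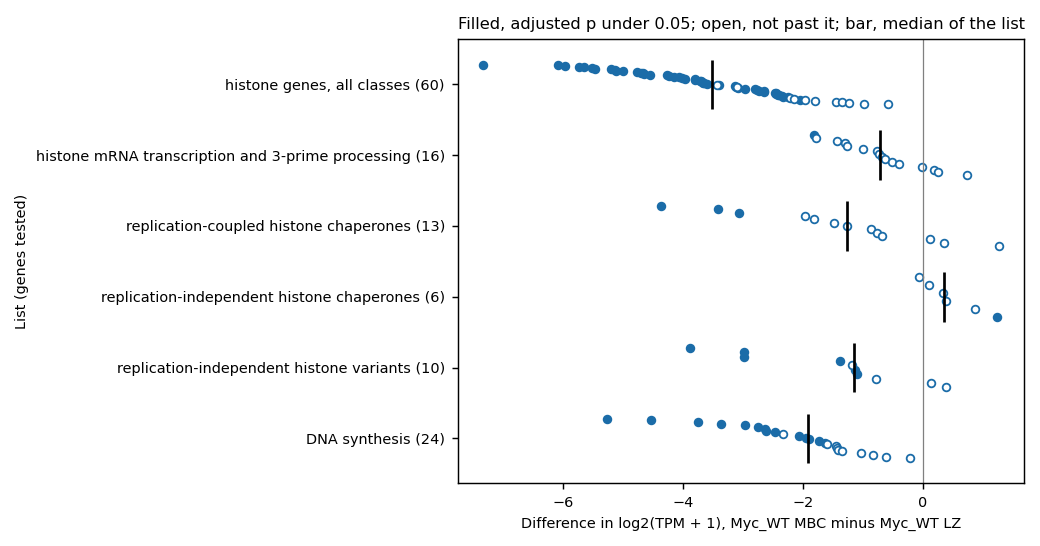
Each point is 1 gene, at its difference in log2(TPM + 1) between MBC and LZ of Myc_WT mice, filled at an adjusted p below 0.05, with the median of each list as a bar. The histone genes have a median of -3.52 and the DNA synthesis genes one of -1.92.

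The second comparison set LZ B cells without MYC-MIZ1 complexes, of Myc_VD mice, against those of Myc_WT mice, and it shares the 4 Myc_WT LZ libraries with the first. Of 65 members, 61 were tested with limma and 0 passed the adjusted threshold in either direction, while 0.00777% of all 12869 genes tested were higher and 0.0389% lower in Myc_VD. At an unadjusted p below 0.05, 6 members were higher and 1 lower, against 1.24% and 15.7% of all genes tested. These counts depended on the scaling. After scaling to the median ratio, 32 of 60 members were higher and 0 lower, against 5.52% and 6.3% of all genes. Without ribosomal RNA genes it was 32 of 62 and 0, against 4.55% and 6.56%, and with protein-coding genes only 41 of 62 and 0, against 6.51% and 5.72%. The sums overlapped, at 10483 ± 2433 TPM in Myc_VD and 8860.3 ± 2676 in Myc_WT (mean ± SD, n = 4 each). The difference of mean log2 sums was 0.26, and 0.61 after scaling to the median ratio, 0.57 without ribosomal RNA genes and 0.65 with protein-coding genes only. As a share of protein-coding TPM the members took 2.14 to 2.89% in Myc_VD and 1.13 to 2.18% in Myc_WT, where Myc_WT mouse 1 was above Myc_VD mouse 8 and the groups did not otherwise overlap. These sums were described and not tested.

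Values of the members leaned higher in Myc_VD. The median log2 difference of the 61 members was 0.34, with a higher mean in Myc_VD for 52 of them, whereas the median of all genes tested was -0.31 and 26.3% had a higher mean. Relative to the median of all genes the members' median was 0.64. Scaling by the median ratio, without ribosomal RNA or with protein-coding genes only gave 0.67, 0.63 and 0.70, beside medians of all genes of -0.01, -0.05 and 0.02, with 0 members past the adjusted threshold in each. Erythroid markers were also higher in most Myc_VD libraries. They summed to 343, 409.6, 352 and 71.9 TPM in Myc_VD mice 5 to 8 and to 155, 226, 116 and 163 TPM in Myc_WT mice 1 to 4. Among Myc_VD mice, mouse 6 was the highest and mouse 8 the lowest, as for the histone sum. Among Myc_WT mice the order ran the other way, with mouse 2 the highest in erythroid markers and the lowest in the histone sum, and mouse 3 the lowest in erythroid markers and high in the histone sum. Of 6 tested, 0 passed the adjusted threshold and 3 were higher at an unadjusted p below 0.05, with a median log2 difference of 1.19. Their part in the histone values was not tested. Leaving out single mice moved the median from 0.14, without Myc_WT mouse 2, to 0.44. Members share libraries and reads and are not independent of one another.

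By class the ratio of mean sums, Myc_VD over Myc_WT, was 1.35 for H2A, 1.34 for H3, 1.17 for H2B, 1.09 for H1 and 1.06 for H4. H2A was at 2206, 1049.9, 2006 and 1318 TPM in Myc_WT and at 2280.2, 2696, 2157 and 1727 in Myc_VD, so mice 7 and 8 lay inside the Myc_WT range. H3 was at 1310.2, 606, 1199 and 712 TPM in Myc_WT and at 1469.6, 1395, 1399 and 855 in Myc_VD, with mouse 8 inside the Myc_WT range. The share of H2A in histone TPM was 20.03 to 24.4% in Myc_VD and 17.3 to 19.5% in Myc_WT, without overlap. The share of H1 was 16.8 to 17.5% and 18.1 to 20.5%, also without overlap, and neither share was tested.

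On deposited TPM the leading genes of H1, H2B and H4 had log2 differences near 0, 0.10 ± 0.26 (SE) for Hist1h1e, 0.09 ± 0.28 for Hist1h2bl and 0.02 ± 0.33 for Hist1h4d. Each of these turned negative when certain single mice were left out. Under the 3 other scalings they were 0.41 to 0.48 for Hist1h1e, 0.41 to 0.48 for Hist1h2bl and 0.34 to 0.41 for Hist1h4d, none past the adjusted threshold. Hist1h2ak had 0.49 ± 0.32 and Hist2h3b 0.45 ± 0.30 on deposited TPM. Under the 3 other scalings they were 0.805 to 0.878 for Hist1h2ak and 0.766 to 0.839 for Hist2h3b, also none past the adjusted threshold. The 3 members furthest in the other direction were Hist3h2ba (-1.21 ± 0.58, adjusted p = 0.320), Hist2h2be (-1.16 ± 0.60, adjusted p = 0.350) and Hist1h4i (-0.97 ± 0.35, adjusted p = 0.214). Hist1h4i was at 4.18, 7.01, 9.89 and 7.83 TPM in Myc_WT and at 3.54, 2.36, 2.6 and 3.97 in Myc_VD, the 1 tested member with all Myc_VD libraries below all Myc_WT libraries. Hist1h2af, chosen after its values were seen, was the 1 with all above, at 22.9, 11.8, 27.7 and 9.24 TPM in Myc_WT and 32.0, 50.2, 39.4 and 28.1 in Myc_VD. Of all genes tested, 9.16% lay all below and 0.816% all above.

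The related lists gave 0 calls in either direction with limma in Myc_VD against Myc_WT LZ. At an unadjusted p below 0.05, 10 of 24 DNA synthesis genes, 6 of 16 processing genes, 4 of 13 replication-coupled chaperones, 1 of 6 other chaperones and 4 of 10 variants were lower and 0 higher, beside 15.7% of all genes lower. After scaling to the median ratio, where 6.3% of all genes were lower and 5.52% higher, 4 DNA synthesis genes, 1 processing gene, 1 replication-coupled chaperone, 0 other chaperones and 4 variants were lower, and 0, 1, 1, 3 and 0 were higher. The median log2 difference of the DNA synthesis genes was -0.60, that of the processing genes -0.41, of the replication-coupled chaperones -0.53 and of the variants -0.70, all below the median of all genes, and that of the other chaperones was 0.04. Slbp was at 108, 92.6, 67.0 and 59.7 TPM in Myc_VD, below each Myc_WT library (log2 difference -0.97 ± 0.23, adjusted p = 0.111). The share of ribosomal RNA was higher in Myc_VD mice 6 to 8 than in any Myc_WT library, while mouse 5, at 44.1%, was below Myc_WT mouse 4, at 44.5%. Over Myc_VD mice 5 to 8 it rose, at 44.1, 49.8, 52.1 and 61.3%, while Slbp fell. Its part in the values of these lists was not tested beyond the scalings above.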

How the data were processed

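The members, gene lists and tests were chosen with earlier results of these data known. Per the labels, total RNA of each sort was prepared with a NuGEN cDNA kit and sequenced on an Illumina HiSeq. The authors aligned reads with STAR 2.5.2a and estimated expression with RSEM 1.3.0, set for a stranded protocol, on GRCm38, and deposited TPM per gene. The annotation release is not given in the sources used here. TPM hold no depth, so no counting interval could be given.

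Row identifiers were joined to GENCODE M21 (GRCm38), with 48349 of 48795 matched. Promoter windows are those of RefSeq (GRCm38.p6). Differences were tested with limma 3.58.1 (R 4.3.3) on log2(TPM + 1), with an intensity trend, on the 2 groups of each comparison, two-sided, at a Benjamini-Hochberg adjusted p of 0.05. A gene entered when its average over those libraries reached 1 TPM. Class sums were described and not tested. Members under this filter were compared with exact permutation tests, whose smallest p is 0.0286. The fit was tested on simulated data.

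Named members were the 4 highest of each class, the called members with the 15 smallest p, the 3 tested members furthest against the sign of the median, those annotated with more than 1 exon and 6 listed as also making polyadenylated mRNA. Of the other lists, the 4 highest genes and those called could be named. Some marker genes are not reported here, and the marker sums leave them out. MBC and LZ libraries of mice 1, 3 and 4 are paired because they come from the same animals. Deviations of paired libraries from their group means correlated with r = 0.00507, 0.0115 and -0.0470 across genes. Alternatives were 3 scalings of TPM, another pseudocount, other filters, no trend, 1 fit over all groups, the mouse as a block and each library left out.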

Additional observations from a re-analysis of the deposited data

Results flagged for a closer look

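In 5 of 86 groups of 4 mice examined, the highest or lowest value had a gap to the nearest other that exceeded Dixon's 95% critical value. Chance alone gives this in about 1 of 20 groups. In Myc_VD mouse 8, the H3 sum was 854.59 TPM against 1395 to 1469.6 in the other Myc_VD mice, and Hist1h2bl was at 532.79 TPM against 958 to 1009.9. Hist3h2ba was at 3.7 TPM in the same mouse, while the other 3 were listed at 0. Hist1h2br was at 91.47 TPM in Myc_VD mouse 6 against 60.5 to 62.7 in the others. Hist1h3a was at 74.71 TPM in Myc_VD mouse 7 against 41.6 to 45.8 in the others. Mouse 8 also had the highest share of ribosomal RNA, 61.3% of TPM, whose part in these values was not tested.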

How the results depend on the processing

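In MBC against LZ, the summed histone TPM, the members' median and every named member kept their direction under all alternatives run. The 49 members that fell became 37 to 55 with all libraries kept, and 27 to 51 with single libraries left out (30 without LZ mouse 1). With the mouse as a replicate block, without the unpaired LZ mouse 2, 37 of 60 fell and the median was -3.68, with 36 called in both fits, 13 without the block only and 1 with it only. A pseudocount of 0.1, which weighs low values more, moved the median to -4.677. Recomputed calls of named members stayed in 284 cases, were lost in 8 and gained in 1 with all libraries kept, stayed in 35 and were lost in 2 with the block, and stayed in 231, were lost in 25 and gained in 3 with single libraries left out. Over all genes, 667 lower and 552 higher became 118 and 130 with the block and 279 and 329 without a filter, and 137 to 1830 lower with single libraries left out. In Myc_VD against Myc_WT LZ, 0 members were called under every alternative, while genes called lower went from 5 to 14 with a mean of at least 5 TPM and to 242 without Myc_VD mouse 5. The members' median there ranged from 0.14 to 0.44 with single libraries left out, and the differences of Hist1h1e from -0.034 to 0.266, of Hist1h2bl from -0.077 to 0.314 and of Hist1h4d from -0.178 to 0.327, crossing 0. Keeping protein-coding genes only rescales each library as a whole and so raised the log2 ratio of every class sum alike, of all members from 0.26 to 0.65, of H1 from 0.13 to 0.51 and of H2B from 0.24 to 0.63. Depth is unknown, which limits what values at 0 show.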

Other observations

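The gene blocks kept different shares of their LZ level in MBCs. The block of 28 genes from Hist1h4h to Hist1h1a on chromosome 13 (23531050 to 23764406 of GRCm38) had a mean sum in MBCs of 16.2% of that in Myc_WT LZ. The block of 17 genes from Hist1h2bl to Hist1h2br (21715763 to 21837530) had 8.64% and the block of 5 genes from Hist1h2ah to Hist1h2bj (22035164 to 22043676) 10.1%. The 10 Hist2 genes on chromosome 3 (96219865 to 96270132) had 6.01%, from 856 to 51.4 TPM. In the same order, the sums of single MBC libraries ran from 572 to 756, 108 to 319, 45.8 to 154 and 16.8 to 100 TPM. Single libraries thus weigh on these shares. The 28-gene block holds Hist1h4d and Hist1h1e, the 2 members with a mean over 100 TPM in MBCs. Differences between blocks were not tested.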
